A study of Homo sapiens with 54 samples.

Results

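The genes of the respiratory chain and the ATP synthase were followed in WM266-4, an established human melanoma line that carries BRAF V600D, after its MAPK pathway was blocked with inhibitors or by shRNA. A gene was a member when its symbol began with NDUFA, NDUFB, NDUFC, NDUFS or NDUFV and a digit, was SDHA, SDHB, SDHC or SDHD, or began with UQCR, with COX and a digit, or with ATP5. Of 17875 genes with a symbol on the array, 81 were members. They comprised 34 genes of complex I, 2 of complex II, 6 of complex III, 23 named for complex IV and 15 of complex V, and NDUFB2-AS1, an antisense RNA of a complex I gene. The members were chosen by name, not by a measured value. NDUFB2-AS1 encodes no subunit, and the COX assembly factors, the supercomplex factor COX7A2L and the inhibitor ATP5IF1 act on the complexes without being standard subunits of them.

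Total RNA was labelled with biotin and measured on 54 Affymetrix arrays, 3 for each of 18 groups. Cells of the inhibitor arm were treated for 3 h or 24 h with DMSO or with 1 of 4 inhibitors. These were 0.05 uM LGX818, which targets BRAF, 0.003 uM trametinib and 0.3 uM MEK162, which both target MEK1/2, and 0.2 uM of an unnamed inhibitor of ERK1/2, called the ERK inhibitor here. In the shRNA arm, cells carried a non-targeting (NT) shRNA or an shRNA labelled shERK1 or shERK2, induced with doxycycline at 100 ng/ml for 3 or 7 days, and parental cells were taken on the same days. The description of the parental cells calls them untreated while their treatment field names doxycycline, so the comparison of NT with parental cells may or may not share the drug. The labels say neither whether the shRNA lines are clones or pools nor whether replicate arrays stem from separate cultures. Every p therefore measures the spread between these arrays, which may be technical.

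The respiratory chain lies in the inner mitochondrial membrane. Complex I takes electrons from NADH and complex II from succinate, complex III passes them from ubiquinol to cytochrome c, and complex IV passes them to oxygen. Complexes I, III and IV pump protons, and complex V uses the proton gradient to make ATP through a rotating ring of c subunits in its membrane part, Fo, which drives the catalytic head. Except for complex II, each holds subunits encoded in mitochondrial DNA, and the genes described here are all nuclear. In melanoma, the coactivator PGC-1alpha, encoded by PPARGC1A, is known to be raised by the lineage factor MITF and to increase the transcription of nuclear genes of oxidative phosphorylation, together with the factors NRF1, ERR alpha (ESRRA) and GABP.

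Promoters of 67 of the 81 members were found among 27305 RefSeq promoters of the GRCh38.p14 build, each taken from 250 bases before to 50 bases after the start of the gene. The NRF1 motif, GCGCA and GCGC parted by any base and searched like the others on both strands, stood in 16 of the 67 (23.9%), in 6.28% of all promoters and in 13.2% of the promoters of genes that passed the level filter of the inhibitor arm. The ETS motif CCGGAAG, the type of site GABP binds, stood in 25.4% of members' promoters, 10.7% of all and 20.6% of those past the filter. The YY1 motif AAGATGGCG stood in 11.9%, 1.85% and 4.36%, and the E-box CACGTG, which MITF among other factors binds, in 13.4%, 7.43% and 10.9%. The ERR motif TCAAGGTCA stood in 1 member, SDHD. These matches are descriptions of letters and not sites shown to be bound.

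The promoters of SDHD (chr11:112086623-112086922, plus strand), NDUFA8 (chr9:122159730-122160029, minus strand) and UQCR10 (chr22:29767119-29767418, plus strand) are shown because these genes gave the largest or near largest rises of complexes II, I and III with LGX818 at 24 h and each holds the NRF1 motif. Capitals mark motif matches. In SDHD they are, in order, the NRF1 motif, the ETS motif and the ERR motif, the last pair on the opposite strand. In NDUFA8, 2 overlapping NRF1 motifs form a single run that begins 4 bases before the start, and in UQCR10 the NRF1 motif begins 8 bases before it.
SDHD: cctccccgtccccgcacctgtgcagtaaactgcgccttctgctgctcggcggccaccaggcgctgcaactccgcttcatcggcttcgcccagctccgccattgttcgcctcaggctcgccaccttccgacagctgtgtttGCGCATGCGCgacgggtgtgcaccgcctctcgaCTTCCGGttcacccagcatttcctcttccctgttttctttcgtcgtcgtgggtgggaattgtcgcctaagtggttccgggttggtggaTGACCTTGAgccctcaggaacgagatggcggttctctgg
NDUFA8: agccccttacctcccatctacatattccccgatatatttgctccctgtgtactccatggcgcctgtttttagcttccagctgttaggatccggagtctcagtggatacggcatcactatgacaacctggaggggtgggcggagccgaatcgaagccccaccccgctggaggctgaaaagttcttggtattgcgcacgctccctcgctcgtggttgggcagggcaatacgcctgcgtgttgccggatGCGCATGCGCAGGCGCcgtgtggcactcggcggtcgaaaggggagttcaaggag
UQCR10: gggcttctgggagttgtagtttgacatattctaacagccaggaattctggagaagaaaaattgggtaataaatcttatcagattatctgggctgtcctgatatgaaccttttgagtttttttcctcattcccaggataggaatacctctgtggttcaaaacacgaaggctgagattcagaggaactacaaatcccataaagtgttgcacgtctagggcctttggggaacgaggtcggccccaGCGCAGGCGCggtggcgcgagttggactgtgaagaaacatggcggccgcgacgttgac

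Values are log2 signals, so a difference of 1 is a doubling of signal. Levels of different genes cannot be ranked against each other on an array. A gene was tested when at least 1 group of its arm had a mean above 7.86 log2, the median of all values, which kept 73 members in each arm among 9703 genes of the inhibitor arm and 9779 of the shRNA arm. Tests were limma fits over all of these genes, and a gene passed, or was called, when its p after Benjamini-Hochberg adjustment was under 0.05. The 8 members that did not pass this level filter were NDUFA10, the copper chaperone gene COX19, and COX4I2, COX6A2, COX6B2, COX7A1, COX7B2 and COX8C, which encode tissue-restricted isoforms of complex IV subunits. The ubiquitous counterparts COX4I1, COX6B1, COX7A2, COX7B and COX8A all passed it, and COX6A1 and NDUFA4 were not analysed here. SDHA and SDHB, which form the catalytic head of complex II, were not analysed here either, so complex II is represented by its membrane anchors SDHC and SDHD alone.

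The mean correlation of an array with the others of its group was 0.991 to 0.998. The difference of the 3' and 5' GAPDH control probe sets, which rises with RNA degradation or incomplete labelling, lay between 0.163 and 0.320 log2 on the 18 control arrays. It was 1.53 on array a and 0.565 on array c of the shERK2 day 7 group, 0.707 on array c of the ERK inhibitor at 3 h and 0.530 on array a of the ERK inhibitor at 24 h. Total counts of called members that rest on the shERK2 day 7 group are therefore given with and without array a. Member calls against NT at day 7 that changed without it are named. Other values of that group rest on all its arrays unless stated. These include the correlations between the arms and the values of genes around the chain. Of the melanocyte lineage, 7 markers were measured and all 7 passed the level filter, whereas 0 of 2 leukocyte and 0 of 2 epithelial markers did.

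After 3 h, few members passed the test. With LGX818, 0 of 73 members passed the test, against 11.7% of all tested genes (5.27% up and 6.43% down), and 1 member had an unadjusted p under 0.05. Trametinib raised 1 member, SDHD, which encodes an anchor subunit of complex II (background 11.3%, with 5.09% up and 6.18% down). MEK162 raised 1, NDUFC1, an accessory subunit of complex I (background 13.2%, with 6.38% up and 6.77% down), and the ERK inhibitor changed 0 (background 10.4%, with 5.51% up and 4.87% down), or 1 without DMSO array c and 4 without its own array b. With trametinib, MEK162 and the ERK inhibitor, 17, 10 and 12 members had an unadjusted p under 0.05, and the median member stood at 0.078, 0.067 and 0.071 log2 against 0.035, 0.033 and 0.035 for all genes. All 4 inhibitors of a time share the same 3 DMSO arrays, so their values stand side by side and are not independent, and their doses differ, so they are not compared with each other.

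SDHD stood at 12.21, 12.24 and 12.18 log2 in DMSO cells and at 12.39, 12.40 and 12.37 with trametinib at 3 h. The groups did not overlap, and the difference was 0.18 (SE 0.058, adjusted p = 0.0457). NDUFC1 stood at 8.97, 8.86 and 8.95 in DMSO cells and at 9.15, 9.12 and 9.16 with MEK162, without overlap, a difference of 0.22 (SE 0.073, adjusted p = 0.0454). Both calls lay close to the threshold and were lost when any 1 array of either group was left out, except for trametinib array b, without which 13 members rose with trametinib. PPARGC1A had moved at this time: its log2 differences were 1.50, 1.47, 1.48 and 1.27 with LGX818, trametinib, MEK162 and the ERK inhibitor, each past the test. Of 10 tested regulators of mitochondrial gene expression, PPARGC1A among them, 1 rose and 4 fell at 3 h with LGX818, 2 and 4 with trametinib, 1 and 4 with MEK162, and 1 and 3 with the ERK inhibitor.

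After 24 h, called members rose more often than they fell with every inhibitor. Called or not, 62, 51, 62 and 53 of 73 members lay above 0 with LGX818, trametinib, MEK162 and the ERK inhibitor. At 3 h, 38, 65, 64 and 60 did. LGX818 raised 37 of 73 and lowered 4, against 35.4% and 33.8% of all tested genes (69.2% in either direction). Trametinib raised 25 and lowered 6 (64.5% of all genes changed; 31.6% up and 33% down), MEK162 raised 31 and lowered 5 (67.2%, with 33.4% up and 33.8% down), and the ERK inhibitor raised 22 and lowered 4 (65.2%, with 33.6% up and 31.5% down). The share of members that fell, 5.48% to 8.22%, was below the 31.5% to 33.8% of all genes, while the share that rose, 30.1% to 50.7%, ranged from below to above the 31.6% to 35.4% of all genes. The median member differed from DMSO by 0.15, 0.089, 0.12 and 0.056 log2 with LGX818, trametinib, MEK162 and the ERK inhibitor, against 0.016, -0.0033, 0.0007 and 0.016 for all genes. Changes of members were small: the median size of the difference was 0.181, 0.124, 0.143 and 0.111 log2, against 0.339, 0.288, 0.316 and 0.299 over all genes. In bulk RNA, fewer cells of a type and less RNA per cell cannot be told apart, and members are no independent replicates of a condition.

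Centring each array on the median of its tested genes would raise every gene by 0.065, 0.074, 0.081 and 0.046 log2 in the 4 comparisons at 24 h. The members' medians before centring were 0.15, 0.089, 0.12 and 0.056, each larger than the shift. Since every gene moves alike, the distance between the median member and the median gene stays the same, while calls can change. With trametinib at 24 h, the share of rises among called members was then 93.3% instead of 80.6%, and among all called genes 57.8% instead of 48.9%.

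**Figure D1:**
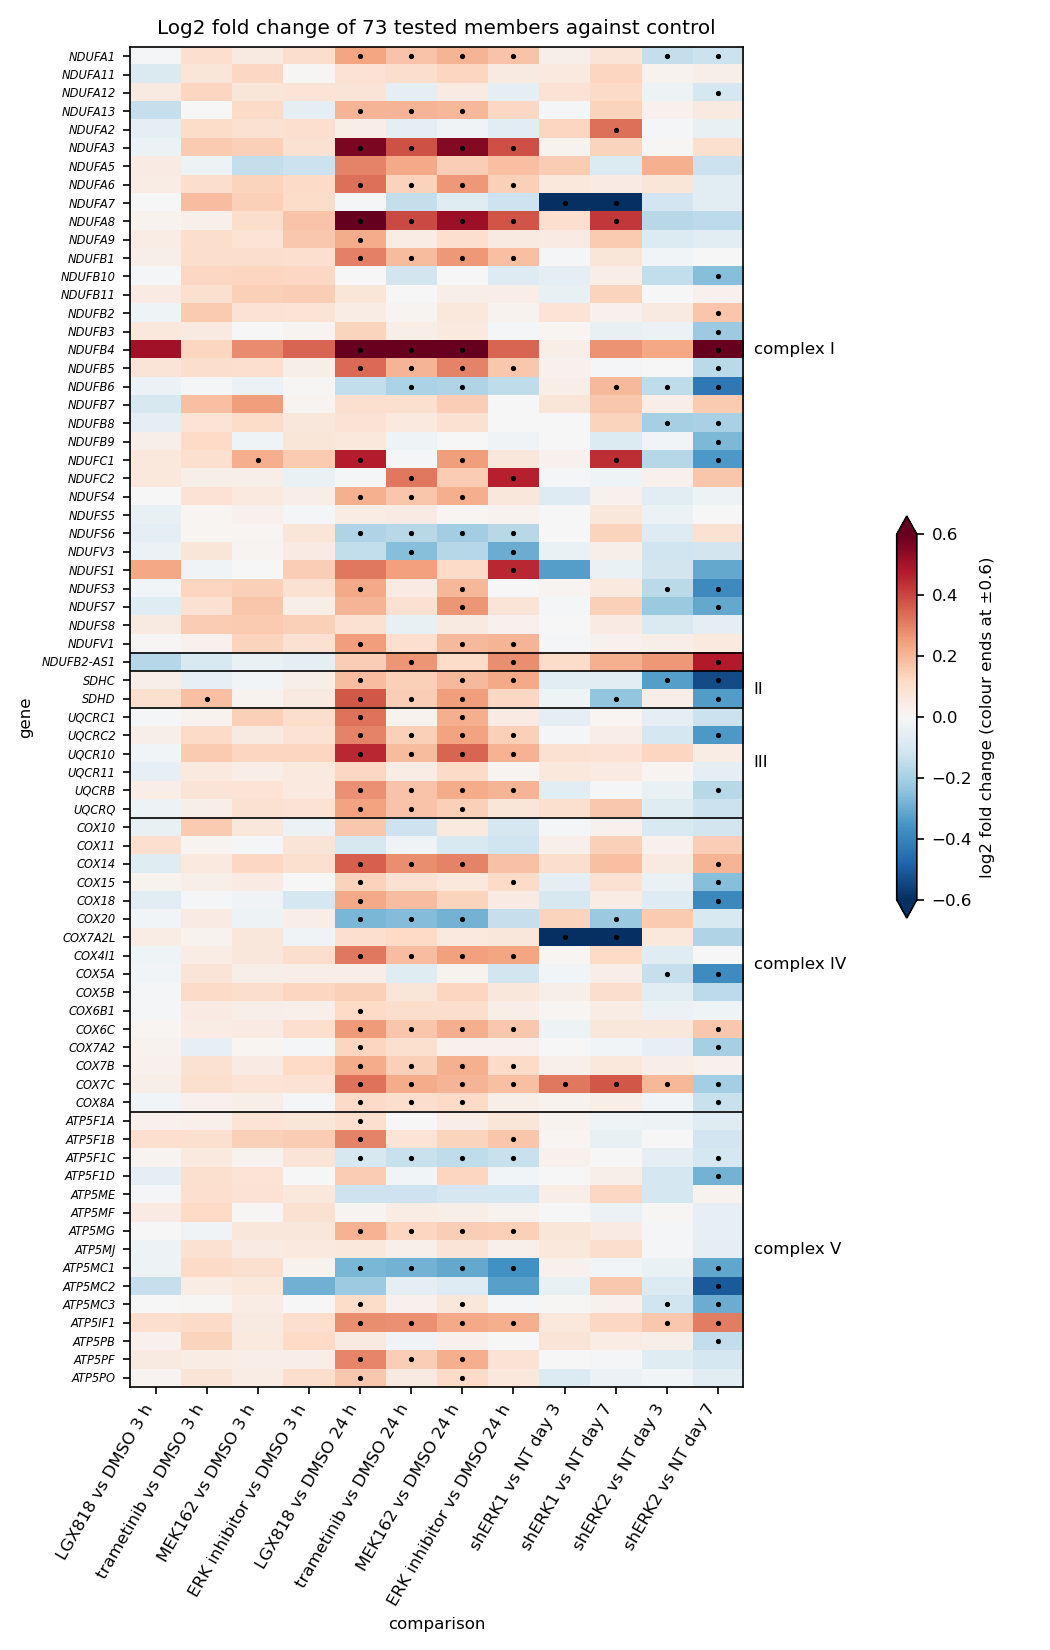
Log2 difference from the matched control (colour, DMSO of the same time or NT shRNA of the same day) for the 73 members past the level filter, in rows grouped by complex, in the 12 comparisons of a treatment with its control. A dot marks an adjusted p under 0.05 in limma. The 24 h inhibitor columns hold mostly rises, the shERK2 day 7 column mostly falls, and the 3 h columns have 2 dots in all.

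Complex I, which takes electrons from NADH, had 33 tested genes. LGX818 at 24 h raised 13 and lowered 1, with a median of 0.13, and the counts were 10 and 3 with trametinib, 13 and 2 with MEK162 and 9 and 2 with the ERK inhibitor. The LGX818 risers were NDUFB4, NDUFA8, NDUFA3, NDUFC1, NDUFB5, NDUFA6, NDUFB1, NDUFV1, NDUFA1, NDUFS3, NDUFA9, NDUFS4 and NDUFA13. NDUFA8, an accessory subunit, stood at 11.17, 11.11 and 11.02 log2 in DMSO cells, at 11.66, 11.80 and 11.80 with LGX818, at 11.56, 11.51 and 11.41 with trametinib, at 11.61, 11.58 and 11.64 with MEK162 and at 11.55, 11.41 and 11.46 with the ERK inhibitor. All 12 treated arrays lay above the 3 DMSO arrays, and the differences were 0.65, 0.39, 0.51 and 0.38 (adjusted p = 1.67e-09, 9.7e-06, 1.49e-07 and 1.65e-05). NDUFA3, also an accessory subunit, rose by 0.57, 0.38, 0.55 and 0.39.

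NDUFB4, an accessory subunit of the membrane arm, gave the largest complex I rise with LGX818, trametinib and MEK162. With MEK162 the rise was 0.66 and the groups overlapped. It lay at 7.37, 7.85 and 8.03 log2 in DMSO cells and at 8.27, 8.81 and 9.13 with LGX818, a difference of 0.99 (SE 0.21, adjusted p = 0.000216). The groups did not overlap. Its level straddled the limit of the level filter, and its SE was the largest of the members. The mean of its DMSO arrays lay below that limit at 3 h and at 24 h. NDUFB4 was thus tested in the inhibitor arm only through groups of treated cells, which favours a rise. At 3 h it stood at 7.32, 7.57 and 7.69 in DMSO cells and at 8.41, 7.80 and 7.89 with LGX818, a difference of 0.51 (SE 0.21, adjusted p = 0.146) that did not pass. Of the core subunits, which carry the electron path, NDUFV1 and NDUFS3 rose with LGX818 by 0.25 and 0.23. NDUFS1, another core subunit, rose with the ERK inhibitor by 0.45 (SE 0.15) and did not pass with the other 3 inhibitors (0.31, 0.24 and 0.12). NDUFC2 passed with trametinib (0.32) and the ERK inhibitor (0.47) and stood at -0.0082 with LGX818.

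The falls in complex I were few. NDUFS6, a zinc-binding accessory subunit, stood at 13.13, 13.13 and 13.18 in DMSO cells and at 12.87, 12.95 and 13.06 with LGX818. It fell with every inhibitor, and its differences were -0.18, -0.17, -0.21 and -0.17. NDUFV3 fell with trametinib (-0.26) and the ERK inhibitor (-0.30), and NDUFB6 with trametinib (-0.19) and MEK162 (-0.18). NDUFB2-AS1 rose with trametinib (0.27) and the ERK inhibitor (0.28) while NDUFB2 itself did not pass with any inhibitor at 24 h (0.044, 0.018, 0.064 and 0.022).

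Complex II was represented by its membrane anchors, which hold the ubiquinone site and a heme. SDHD stood at 12.43, 12.34 and 12.40 in DMSO cells, at 12.87, 12.71 and 12.70 with LGX818, at 12.50, 12.58 and 12.53 with trametinib, at 12.69, 12.66 and 12.57 with MEK162 and at 12.43, 12.63 and 12.48 with the ERK inhibitor. Its differences were 0.37, 0.15, 0.25 and 0.13 with adjusted p = 2.94e-06, 0.0271, 0.000459 and 0.0597, so that it passed with the first 3 and not with the ERK inhibitor. SDHC stood at 9.73, 10.18 and 9.94 in DMSO cells and at 10.25, 10.06 and 10.09 with LGX818. These groups overlapped, since DMSO array b lay above 2 of the LGX818 arrays. The differences of SDHC were 0.19, 0.14, 0.20 and 0.23, past the test with LGX818, MEK162 and the ERK inhibitor.

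Complex III, which moves electrons from ubiquinol to cytochrome c, had 6 tested genes. LGX818 raised 5 of them, UQCR10, UQCRC1, UQCRC2, UQCRB and UQCRQ, with a median of 0.29, trametinib 4, MEK162 5 and the ERK inhibitor 3, and 0 fell. UQCR10, a small subunit, stood at 10.07, 9.92 and 9.90 in DMSO cells and at 10.32, 10.45 and 10.47 with LGX818, and its differences were 0.45, 0.19, 0.35 and 0.21 with the 4 inhibitors. UQCRC1 and UQCRC2, the core proteins, were not called alike: UQCRC2 rose with every inhibitor (0.30, 0.14, 0.24 and 0.14) and UQCRC1 with LGX818 and MEK162 (0.32, 0.02, 0.22 and 0.048). The difference between the core proteins was not tested. UQCR11 did not pass with any inhibitor (0.13, 0.045, 0.12 and 0.015).

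Complex IV, cytochrome c oxidase, had 16 tested genes. LGX818 raised 10 and lowered 1 (median 0.14), trametinib 6 and 1, MEK162 6 and 1, and the ERK inhibitor 5 and 0. Among structural subunits, COX4I1, COX6C, COX7B and COX7C rose with every inhibitor. COX4I1, the ubiquitous isoform of subunit 4, stood at 12.66, 12.57 and 12.70 in DMSO cells and at 12.91, 13.00 and 12.97 with LGX818, and its differences were 0.32, 0.19, 0.24 and 0.24. COX7C rose by 0.33, 0.22, 0.20 and 0.18. COX5A and COX5B, which sit on the matrix side, passed with 0 of the inhibitors. COX7A2 rose with LGX818 (0.13), while COX7A2L, a factor that joins complexes III and IV into supercomplexes, stood at 0.10, 0.12, 0.059 and 0.066 and did not pass.

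The assembly factors of complex IV moved in both directions. COX14, which binds newly made COX1 protein, rose by 0.36, 0.28 and 0.30 with LGX818, trametinib and MEK162. COX20, a chaperone of the COX2 protein, was the complex IV gene that fell: it stood at 11.01, 10.87 and 10.93 in DMSO cells and at 10.66, 10.62 and 10.69 with LGX818, and its differences were -0.28, -0.26, -0.28 and -0.14, past the test with the first 3. COX15, which makes heme A, rose with LGX818 (0.14) and the ERK inhibitor (0.11), and COX18, an insertase, with LGX818 (0.23). COX10, which acts before COX15 in heme A synthesis, and COX11, which delivers copper, did not pass with any inhibitor. COX17 was not analysed here.

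Complex V, the ATP synthase, had 15 tested genes, of which LGX818 raised 7 and lowered 2 (median 0.10), trametinib 3 and 2, MEK162 5 and 2, and the ERK inhibitor 3 and 2. In the catalytic head the genes split. ATP5F1B, the catalytic beta subunit, stood at 13.11, 13.05 and 13.27 in DMSO cells and at 13.45, 13.50 and 13.38 with LGX818 and its differences were 0.30, 0.084, 0.13 and 0.17, past the test with LGX818 and the ERK inhibitor. ATP5F1C, the gamma subunit of the central shaft, fell with every inhibitor (-0.10, -0.14, -0.15 and -0.13). In the peripheral stalk, ATP5PF rose with LGX818, trametinib and MEK162 (0.29, 0.15, 0.22 and 0.087).

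ATP5MC1, ATP5MC2 and ATP5MC3 encode the same mature c subunit of the rotor ring with different import signals, and they did not move together. ATP5MC1 stood at 13.27, 13.26 and 13.04 in DMSO cells, at 12.84, 12.97 and 12.93 with LGX818, at 12.93, 12.94 and 12.85 with trametinib, at 13.00, 12.82 and 12.82 with MEK162 and at 12.72, 12.88 and 12.88 with the ERK inhibitor. All 12 treated arrays lay below the 3 DMSO arrays, and the differences were -0.27, -0.29, -0.31 and -0.36 (adjusted p = 0.000165, 0.000119, 4.37e-05 and 5.07e-06). ATP5MC2 did not pass (-0.22, -0.053, -0.078 and -0.33), and ATP5MC3 rose slightly with LGX818 (0.11) and MEK162 (0.067). ATP5IF1, which encodes the inhibitor that blocks reverse rotation of the enzyme, rose with every inhibitor: it stood at 10.99, 11.08 and 11.04 in DMSO cells, at 11.24, 11.29 and 11.39 with trametinib, and its differences were 0.28, 0.27, 0.23 and 0.22.

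**Figure D2:**
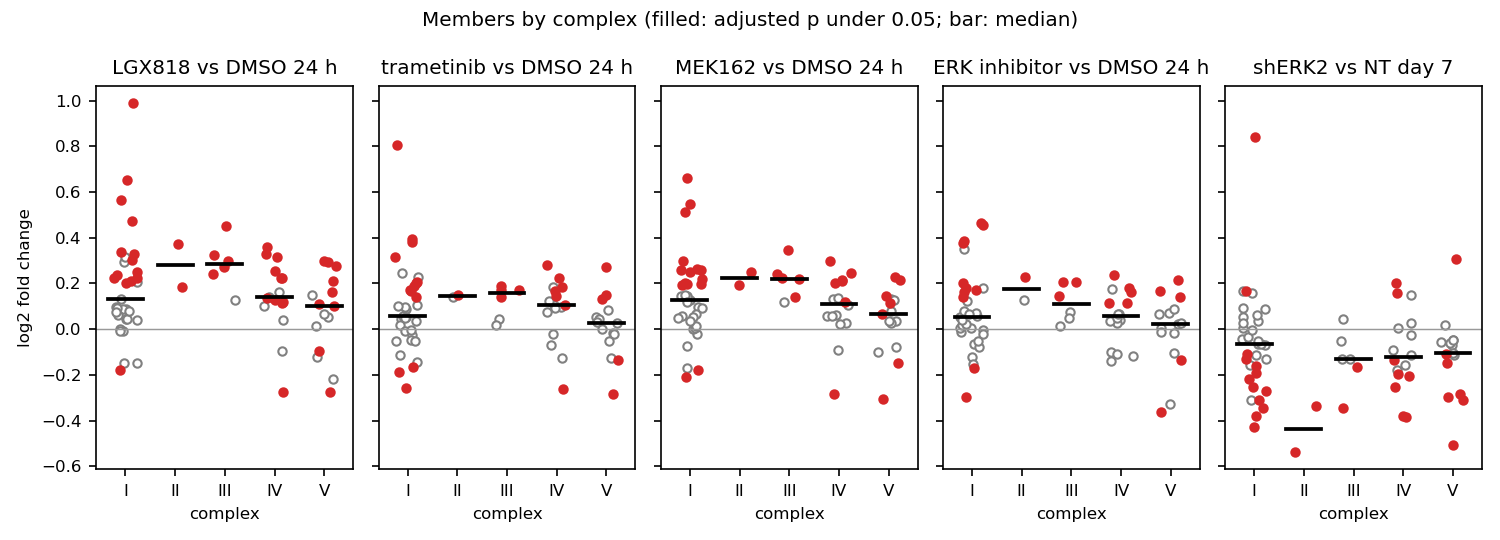
Log2 difference from the matched control of each tested member (points), grouped by complex I to V on the horizontal axis, with 1 panel for each 24 h inhibitor comparison and 1 for shERK2 at day 7 against NT. Filled points passed an adjusted p of 0.05, and bars mark the median of the complex. With LGX818 the medians of all 5 complexes lie above 0, from 0.10 to 0.29, and with shERK2 at day 7 all 5 lie below 0.

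Members also differed with time in culture. In DMSO cells, whose arrays are also the controls of the inhibitor comparisons, 15 of 73 were higher at 24 h than at 3 h and 0 were lower, against 16.3% and 15% of all tested genes (31.4% in all). COX5B, a structural subunit of complex IV, stood at 13.02, 13.05 and 13.06 at 3 h and at 13.38, 13.22 and 13.27 at 24 h, a rise of 0.25 (SE 0.064, adjusted p = 0.00448) and the largest of the members. NDUFA7 and NDUFA3 rose by 0.24 and 0.23, and PPARGC1A by 1.10. The count of 15 was 9 without DMSO 3 h array a, 6 without DMSO 3 h array b and 6 without DMSO 24 h array a.

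Whether an inhibitor's effect differed between 24 h and 3 h was tested as an interaction. For LGX818 the effect was more positive at 24 h for 26 members and more negative for 2 (background 52%, with 26% up and 26% down). The counts were 2 and 8 for trametinib (49.7%, with 22.6% up and 27.1% down), 8 and 5 for MEK162 (50.9%, with 23.5% up and 27.4% down) and 2 and 4 for the ERK inhibitor (48.7%, with 23.2% up and 25.4% down). NDUFA8 had the largest called change of effect with LGX818, 0.63 (SE 0.093, adjusted p = 2.54e-06), as well as with MEK162, 0.41. The effect on ATP5MC1 became more negative with each of the 4, with changes of -0.25, -0.40, -0.41 and -0.38. The direction of these counts depended on the scale. After centring each array on the median of its tested genes, rises were 76.5% of called members instead of 20% for trametinib. They were 95.2% instead of 61.5% for MEK162 and 55.6% instead of 33.3% for the ERK inhibitor. Among all called genes the shares were 53.9% instead of 45.4%, 56.7% instead of 46.2% and 54.9% instead of 47.7%. The centred share of members with the ERK inhibitor was thus near that of all genes. The trametinib count of 10 was 18 without trametinib 3 h array b and 6 without trametinib 3 h array c or DMSO 24 h array a. The MEK162 count of 13 was 6 to 8 without DMSO 3 h array b, MEK162 3 h array b or c, DMSO 24 h array b or MEK162 24 h array a, and the ERK inhibitor count of 6 was 10 without its 24 h array a.

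**Figure D3:**
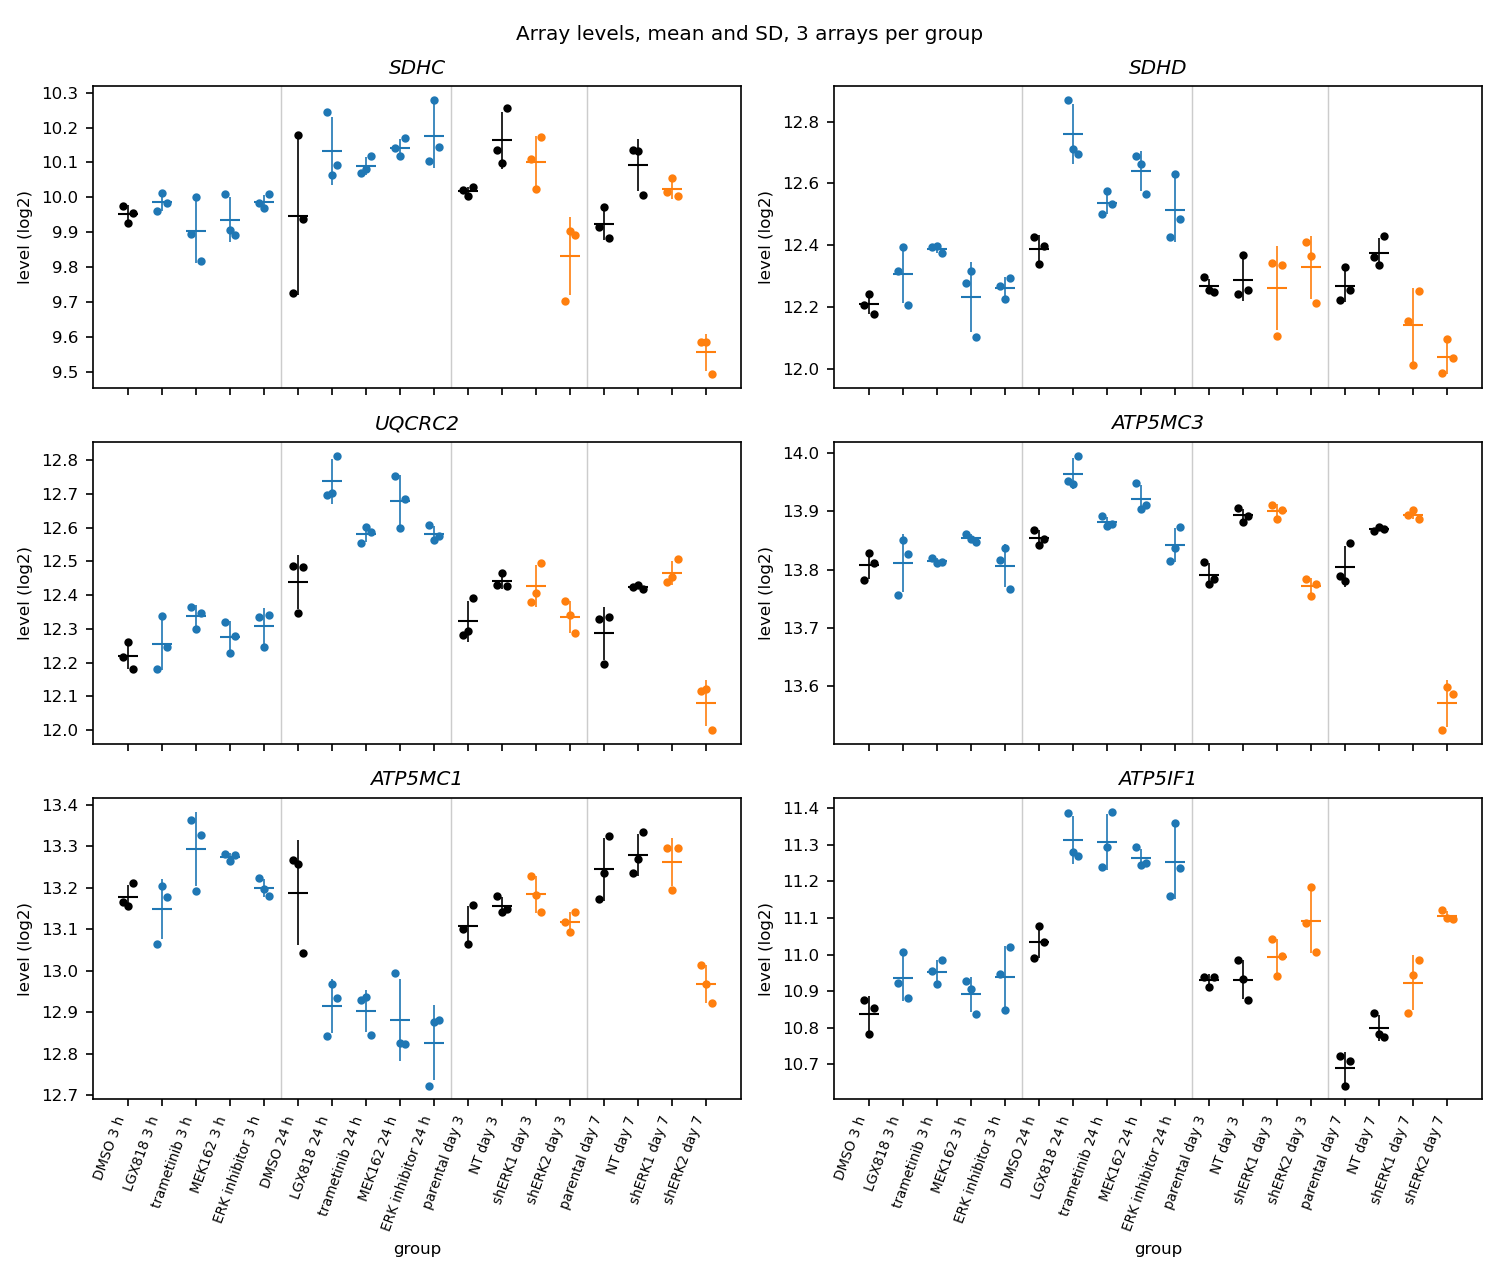
Log2 signal on each of the 3 arrays (points) with the group mean and SD (bars) of SDHC, SDHD, UQCRC2, ATP5MC3, ATP5MC1 and ATP5IF1 in all 18 groups, with control groups (DMSO, NT, parental) in black, inhibitors in blue and the shRNAs labelled shERK1 and shERK2 in orange. ATP5MC1 lies below DMSO with all 4 inhibitors at 24 h, and SDHD lies above DMSO with LGX818 at 24 h and below NT with shERK2 at day 7.

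In the shRNA arm, the shRNA labelled shERK1 lowered its target. MAPK3, which encodes ERK1, stood at 9.66, 9.67 and 9.78 in NT cells and 8.02, 8.28 and 8.19 in shERK1 cells at day 3, a difference of -1.54 (SE 0.12), and the difference at day 7 was -1.40 (SE 0.12). The target of the shRNA labelled shERK2 was not analysed here, so that label was not checked. NT and parental cells differed in 2 members at day 3 (background 11.9%, with 6.07% up and 5.87% down), ATP5MC3 by 0.10 and COX20 by -0.28, and in 2 at day 7 (background 16.4%, with 8.27% up and 8.11% down), UQCRC2 by 0.14 and UQCR10 by 0.22. The day 3 count was 1 without NT array c and 18 with only these 2 groups in the fit, 16 higher and 2 lower, against 13.6% and 13.2% of all tested genes. The day 7 count was 0 without parental array a or b or NT array b, 1 without NT array c and 5 without parental array c. After centring, 75% of the called members were higher instead of 100%, and 49.7% of all called genes instead of 50.5%. Between day 7 and day 3, 0 members changed in NT cells (background 5.5%, with 2.53% up and 2.98% down), with 5 at an unadjusted p under 0.05.

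With shERK1, 3 members changed at day 3, 1 up and 2 down, against 4.66% of all tested genes (1.97% up and 2.69% down). At day 7, 9 changed, 5 up and 4 down, against 17.9% (8.74% up and 9.16% down). A pair of these changes stood far above the others in size. COX7A2L, the supercomplex factor, stood at 13.15, 13.08 and 13.09 in NT cells and at 11.80, 11.75 and 11.85 in shERK1 cells at day 3. At day 7 it stood at 13.15, 13.10 and 13.08 and at 11.86, 11.60 and 11.80. The shERK1 arrays lay more than a log2 step below every NT array on both days, and the differences were -1.30 (SE 0.079, adjusted p = 8.27e-10) and -1.36 (SE 0.079, adjusted p = 3.54e-10), or 2.47-fold and 2.57-fold.

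NDUFA7, an accessory subunit of complex I, stood at 11.67, 11.58 and 11.67 in NT cells and at 10.64, 10.73 and 10.51 in shERK1 cells at day 3. At day 7 it stood at 11.46, 11.55 and 11.64 and at 10.69, 10.63 and 10.58. Its differences were -1.01 (SE 0.074, adjusted p = 1.59e-08) and -0.92 (SE 0.074, adjusted p = 3.31e-08). The groups did not overlap on either day. Neither gene passed with shERK2, where COX7A2L differed by 0.062 and -0.18 and NDUFA7 by -0.12 and -0.07 at days 3 and 7. The direct test of shERK2 against shERK1 gave 1.37 (SE 0.079, adjusted p = 8.89e-12) for COX7A2L and 0.90 (SE 0.074, adjusted p = 3e-09) for NDUFA7 at day 3. With the 4 inhibitors at 24 h, NDUFA7 stood at -0.0064, -0.14, -0.074 and -0.12 and did not pass.

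**Figure D4:**
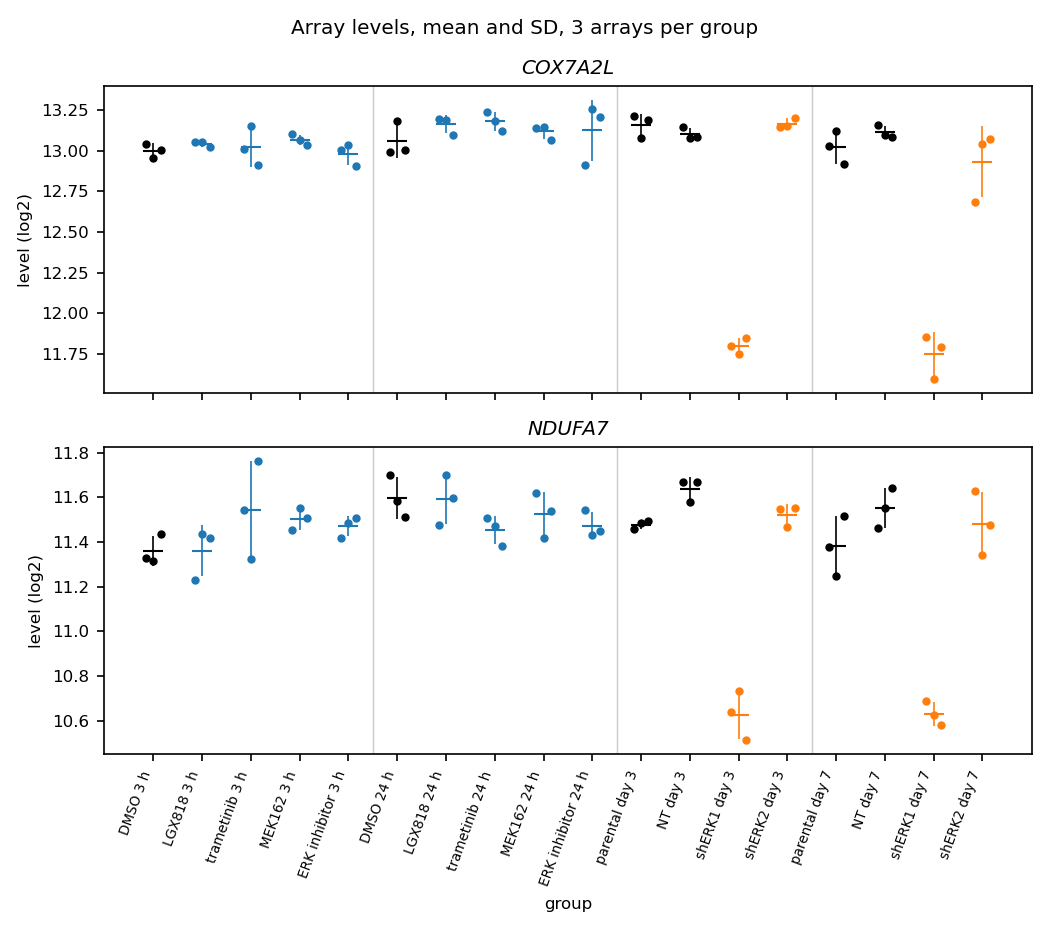
Log2 signal on each array (points) with group mean and SD (bars) of COX7A2L and NDUFA7 in all 18 groups, with control groups in black, inhibitors in blue and the shRNAs labelled shERK1 and shERK2 in orange. In both genes the 6 shERK1 arrays lie below the other 18 arrays of the shRNA arm.

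COX7C, a small subunit of complex IV, rose with shERK1 at both days. It stood at 12.15, 12.23 and 12.23 in NT cells and at 12.66, 12.41 and 12.49 in shERK1 cells at day 3, a rise of 0.32 (SE 0.065, adjusted p = 0.00535), and differed by 0.37 (SE 0.065) at day 7. NDUFC1 and NDUFA8 rose at day 7 by 0.44 (SE 0.12) and 0.42 (SE 0.078), and NDUFA2 and NDUFB6 by 0.33 (SE 0.07) and 0.20 (SE 0.055). SDHD and COX20 fell, with differences of -0.23 (SE 0.066) and -0.22 (SE 0.065). The effect of shERK1 at day 7 did not differ from that at day 3 for any member past the threshold (0 of 73, background 0.522%, with 0.297% up and 0.225% down), with 4 at an unadjusted p under 0.05. With only the shERK1 and NT arrays of day 7 in the fit, 20 members rose and 4 fell, against 15.3% and 17.6% of all tested genes.

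With shERK2, more of the called members fell than rose. At day 3, 2 members rose and 7 fell (2.74% and 9.59%), against 17.5% and 15.5% of all tested genes (33% in all). Both shares of members thus lay below those of all genes. At day 7, 6 rose and 27 fell, against 64.2% of all tested genes called in either direction. The 27 falls were 37% of the members, against 31.5% of all genes, and the 6 rises 8.22% against 32.8%. The median member stood at -0.11 log2 at day 7 and the median gene at 0.013. Without array a of the shERK2 day 7 group, 4 members rose and 38 fell (5.48% and 52.1% of the members, against 31.4% and 33.7% of all tested genes). With every array above 0.5 in the GAPDH difference left out, which leaves 1 array in that group and assumes that it varies like the other groups, 3 rose and 29 fell, against 27.3% and 30.2% of all genes. With only the shERK2 and NT arrays of day 7 in the fit, 3 rose and 16 fell, against 21.3% and 21.1%. At day 3 the count of 9 was 4 without NT array a and 5 without shERK2 array a.

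At day 7, complex I had 2 rises and 11 falls among 33 genes (median -0.067). NDUFS3, a core subunit, stood at 12.69, 12.72 and 12.82 in NT cells and at 12.37, 12.36 and 12.38 in shERK2 cells, a difference of -0.38 (SE 0.055, adjusted p = 4.27e-06). NDUFB6 stood at 10.43, 10.46 and 10.43 and at 10.02, 10.03 and 9.99, a difference of -0.43 (SE 0.055, adjusted p = 9.02e-07). In both genes the groups did not overlap. The other falls were in NDUFC1, NDUFS7, NDUFB9, NDUFB10, NDUFB3, NDUFB8, NDUFB5, NDUFA1 and NDUFA12. The falls of NDUFC1, NDUFB3 and NDUFA12 were lost when the arrays above 0.5 were left out, and that of NDUFC1 also without array a alone. Falls of NDUFA9, NDUFS8 and NDUFV3 were gained under both settings, with differences of -0.19, -0.19 and -0.23 without array a against -0.067, -0.052 and -0.11 with all arrays, and a fall of NDUFA8 without array a alone. NDUFB4 rose by 0.84 (SE 0.16, adjusted p = 8.38e-05), NDUFB2 by 0.17 and NDUFB2-AS1 by 0.47 (SE 0.11). The rise of NDUFB2 was lost under both settings.

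Both anchors of complex II fell at day 7. SDHC stood at 10.14, 10.13 and 10.01 in NT cells and at 9.59, 9.59 and 9.49 in shERK2 cells, a difference of -0.54 (SE 0.063, adjusted p = 2.06e-07) and the largest fall of the members. SDHC had already fallen at day 3, with a difference of -0.33 (SE 0.063). SDHD stood at 12.36, 12.34 and 12.43 and at 11.99, 12.10 and 12.04, a difference of -0.34 (SE 0.066, adjusted p = 0.000158), and differed by 0.041 at day 3. SDHD also fell with shERK1 at day 7 (-0.23), and its direct limma test of shERK2 against shERK1 did not pass (-0.10, adjusted p = 0.176). That of SDHC did (-0.47, adjusted p = 1.14e-06). In complex III, UQCRC2 stood at 12.42, 12.43 and 12.42 and at 12.12, 12.12 and 12.00, a difference of -0.35 (SE 0.047, adjusted p = 1.55e-06). UQCRB, which binds ubiquinone, fell too (-0.16), and the other 4 genes did not pass with all arrays. Of these, UQCRC1, a core subunit, differed by -0.13 and UQCRQ, a small subunit, by -0.13. Both fell without array a, with differences of -0.25 (adjusted p = 0.00503) and -0.27 (adjusted p = 0.000105), and both also passed with the arrays above 0.5 left out (-0.27 and -0.21).

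Complex IV had 2 rises and 6 falls among 16 genes (median -0.12). COX5A stood at 13.49, 13.56 and 13.52 in NT cells and at 13.04, 13.26 and 13.12 in shERK2 cells, a difference of -0.38 (SE 0.044, adjusted p = 1.86e-07). COX18, COX15, COX7A2, COX7C and COX8A fell as well, with differences of -0.38, -0.25, -0.20, -0.20 and -0.13, and COX14 and COX6C rose by 0.20 and 0.16. With the arrays above 0.5 left out, COX14, COX6C, COX8A, COX15 and COX18 no longer passed, and without array a alone COX14 and COX18 did not. Falls of COX4I1 and COX5B were gained under both settings, with differences of -0.19 (adjusted p = 0.0011) and -0.25 (adjusted p = 0.00145) without array a against 0.0032 and -0.16 with all arrays. COX20 was gained without array a alone. COX7C went the other way at day 3, where it rose by 0.20.

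In complex V, 1 gene rose and 6 fell among 15 (median -0.10). With all arrays, the 3 genes of the c subunit were each called lower at day 7, with ATP5MC1 at -0.31, ATP5MC2 at -0.51 and ATP5MC3 at -0.30. ATP5MC1 stood at 13.24, 13.27 and 13.34 in NT cells and at 13.01, 12.97 and 12.92 in shERK2 cells, without overlap. The groups of ATP5MC2 overlapped. It stood at -0.28 without array a and at 0.025 with the arrays above 0.5 left out, so its fall depended on those arrays. With the arrays above 0.5 left out, ATP5MC1 and ATP5MC3 stayed at -0.31 and -0.27. ATP5F1D, ATP5PB and ATP5F1C fell by less, with differences of -0.28, -0.15 and -0.11, and that of ATP5PB was lost under both settings. Falls of ATP5F1A and ATP5F1B, which encode the alpha and beta subunits of the catalytic head, and of ATP5PO were gained under both, with differences of -0.13, -0.22 and -0.14 without array a against -0.071, -0.11 and -0.062 with all arrays, and falls of ATP5MJ and ATP5PF without array a alone. ATP5IF1 was the gene that rose: it stood at 10.84, 10.78 and 10.78 and at 11.12, 11.10 and 11.10, a rise of 0.31 (SE 0.052, adjusted p = 3.16e-05) after 0.16 at day 3.

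The effect of shERK2 at day 7 differed from that at day 3 for 12 members, 1 more positive and 11 more negative (background 23.9%, with 10.9% up and 13% down). ATP5MC1, SDHD, UQCRC2 and NDUFB6 were among the latter, with changes of -0.27, -0.38, -0.24 and -0.27, and NDUFB4 was the former. The count of 12 was 17 without array a of the shERK2 day 7 group. Compared directly, shERK2 cells were above shERK1 cells in 2 members and below in 10 at day 3 (background 35.5%, with 18.9% up and 16.6% down). At day 7 they were above in 4 and below in 34 (background 68.7%, with 35.6% up and 33.1% down). Without array a of the shERK2 day 7 group, the day 7 count was 53 instead of 38. Both shRNAs share the NT arrays in the comparisons with NT, but not in this direct test. NDUFC1 and ATP5MC2 had called negative differences at day 7 of -0.78 (SE 0.12) and -0.67 (SE 0.14), and both moved towards 0 without array a, to -0.59 (SE 0.091, adjusted p = 6.16e-06) and -0.44 (SE 0.11, adjusted p = 0.000922). With the arrays above 0.5 left out they were -0.51 (SE 0.11, adjusted p = 0.000542) and -0.14 (SE 0.084, adjusted p = 0.159), so the call of ATP5MC2 was lost.

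The inhibitor arm and the shRNA arm share no arrays, so their calls can be set against each other. Of the 37 members that rose with LGX818 at 24 h, 14 (37.8%, and 51.9% of the 27 falls with shERK2 at day 7) fell with shERK2 at day 7, and 4 (10.8%) rose. Of all 73 members, 27 (37%) fell and 6 (8.22%) rose, so these shares are near those of the members as a whole. Among all tested genes that rose with LGX818 the shares were 9.56% and 62.2%. With trametinib 7 of 25 (28%) fell with shERK2, against 7.92% of all genes that rose, with MEK162 12 of 31 (38.7%) against 9.41%, and with the ERK inhibitor 7 of 22 (31.8%) against 7.60%. Without array a of the shERK2 day 7 group, the LGX818 share was 21 of 37 (56.8%) against 10.5%, and without the arrays above 0.5 it was 17 of 37 (45.9%) against 9.69%. The shares of all members that fell were 52.1% and 39.7% in these settings. The 14 members were ATP5MC3, COX15, COX18, COX7A2, COX7C, COX8A, NDUFA1, NDUFB5, NDUFC1, NDUFS3, SDHC, SDHD, UQCRB and UQCRC2, and the 4 that rose in both were ATP5IF1, COX14, COX6C and NDUFB4. Without array a, COX18, NDUFC1 and COX14 were not called with shERK2 (-0.091, -0.14 and 0.087). With the arrays above 0.5 left out, COX18 stood at 0.015, COX15 at -0.12 and COX8A at -0.070. NDUFB4 passed the level filter of the inhibitor arm only through treated groups. The arms differ in time, agent and culture as well as in target, and these cannot be told apart.

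**Figure D5:**
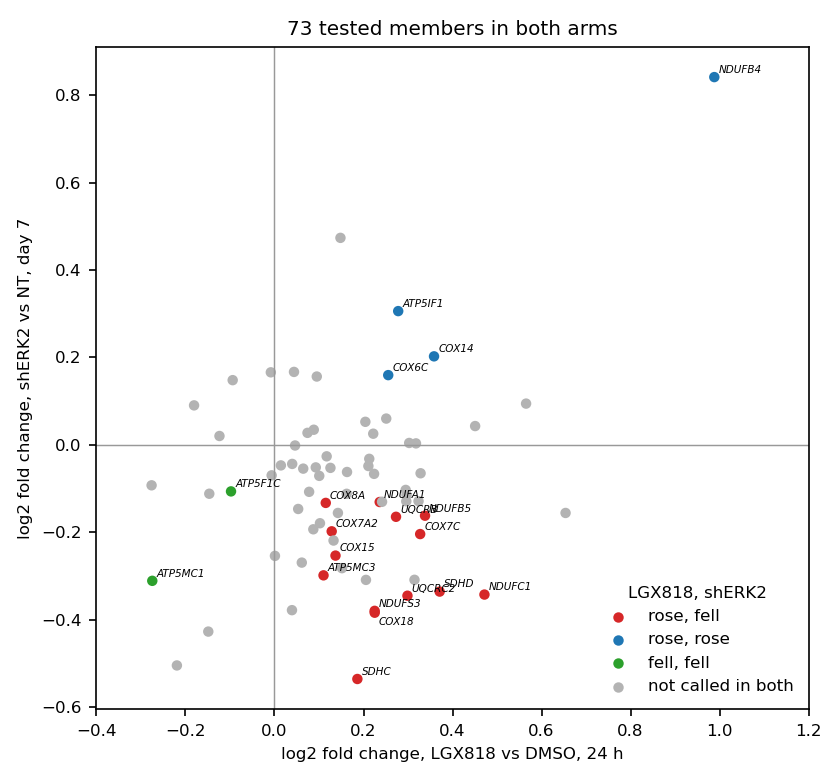
Log2 difference with LGX818 at 24 h against DMSO (horizontal axis) and with shERK2 at day 7 against NT (vertical axis) for the 73 tested members, coloured by the direction of their calls (grey where not called in both). Points in the lower right, such as SDHD, SDHC and NDUFS3, rose with LGX818 and fell with shERK2, ATP5MC1 and ATP5F1C lie in the lower left and ATP5IF1 and NDUFB4 in the upper right.

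Across the 73 members, the Pearson correlation between the 24 h effect of an inhibitor and the shERK2 day 7 effect was 0.29, 0.47, 0.31 and 0.34 for LGX818, trametinib, MEK162 and the ERK inhibitor, and 0.057, 0.27, 0.13 and 0.28 without NDUFB4. These are descriptions over genes measured on the same arrays, and genes are not independent replicates. ATP5MC1 and ATP5F1C fell and ATP5IF1 and COX6C rose with every inhibitor at 24 h and with shERK2 at day 7.

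Genes around the chain were read from lists chosen with earlier results known. Of 14 tested genes of pyruvate dehydrogenase and the TCA cycle, which supplies NADH and succinate, LGX818 raised 8 and lowered 0 at 24 h, trametinib 3 and 2, MEK162 6 and 1, and the ERK inhibitor 3 and 2, and shERK2 at day 7 raised 1 and lowered 9 of 13. OGDH, of the 2-oxoglutarate dehydrogenase, rose by 0.56 with LGX818, IDH3G, a subunit of NAD-dependent isocitrate dehydrogenase, by 0.60, and PDHB of pyruvate dehydrogenase by 0.43. With shERK2 at day 7, DLAT, also of pyruvate dehydrogenase, fell (-0.66), as did SUCLA2, a succinyl-CoA ligase subunit (-0.43), while IDH3G rose by 0.53. These genes, chosen as examples after their values were seen, share the backgrounds given above. Of 5 tested genes of carriers and further subunits, 3 rose and 0 fell with LGX818 at 24 h, 2 and 1 with trametinib, 2 and 1 with MEK162, 2 and 1 with the ERK inhibitor, and 1 and 2 with shERK2 at day 7, where their median was -0.087 log2. CYCS, which encodes cytochrome c, rose with LGX818 (0.56) and with shERK2 at day 7 (1.18).

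Of 33 tested assembly factors of the complexes, 8 rose and 9 fell with LGX818, 7 and 14 with trametinib, 8 and 13 with MEK162, 7 and 13 with the ERK inhibitor, and 4 and 14 with shERK2 at day 7. Of 10 tested regulators of mitochondrial gene expression, 2 rose and 7 fell with each of the 4 inhibitors at 24 h, and 0 rose and 6 fell with shERK2 at day 7. PPARGC1A stood at 11.58, 11.53 and 11.44 in DMSO cells at 24 h and at 12.72, 12.68 and 12.60 with LGX818, and its differences with the 4 inhibitors were 1.15, 0.64, 1.0 and 0.66. In shERK2 cells it stood at 9.41, 9.47 and 9.82 at day 7 against 10.90, 10.96 and 10.85 in NT cells, a difference of -1.34 (SE 0.079, adjusted p = 3.84e-12). ESRRA rose with LGX818 by 0.87 and stood at -0.071 with shERK2 at day 7, below the threshold. NRF1 fell with LGX818, with a difference of -0.87 (SE 0.081). TFAM, which packages and transcribes mitochondrial DNA, differed by -1.09 (SE 0.10), and TFB1M, a methyltransferase of mitochondrial ribosomal RNA, by -1.99 (SE 0.079).

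Melanocyte lineage genes moved with the same treatments. Of 7 tested markers, 6, 6, 6 and 5 rose and 0, 1, 0 and 1 fell with LGX818, trametinib, MEK162 and the ERK inhibitor at 24 h, and 3 rose and 4 fell with shERK2 at day 7. MITF stood at -0.0089 with LGX818, below the threshold, and fell with shERK2 at day 7 with a difference of -0.89 (SE 0.094). PMEL, a melanosome protein, stood at 1.45 and -1.13 in the same comparisons, past the test in both. With shERK2, MITF and PMEL were thus among the 4 markers that fell, while 3 others rose. The part of the lineage genes and of the regulators in the changes of the members was not tested.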

How the data were processed

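Total RNA of WM266-4 cells was measured on 54 arrays. Per the submitters' processing notes, RMA of the affy package, with no version named, gave the log2 values that were deposited. The method removes background, gives all arrays the same distribution of values and sums probes to probe sets, so a shift shared by all genes is lost. How probes were assigned to probe sets, and on which genome build, is not given in the sources used here. Of 18989 probe sets, 17875 carried 1 gene symbol in the platform's annotation. Arrays have no read depth, and their number limits the precision.

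Each arm was fitted separately over all genes past the level filter with limma 3.58.1 in R 4.3.3 (lmFit, then eBayes with an intensity trend, 1 mean per group), with 20 residual degrees of freedom for the inhibitors and 16 for the shRNAs. P-values were adjusted by Benjamini-Hochberg within each of 24 comparisons, and SE is the moderated standard error. The fit was tested on simulated data with 200 shifted genes. It recovered 38% of shifts of 0.25 log2 and 85% of shifts of 0.5 for LGX818 at 24 h. For shERK2 at day 7 it recovered 37% and 80%. Only 200 of 9703 or 9779 genes were shifted, whereas 69.2% and 64.2% of all tested genes were called in the data. The adjusted threshold was therefore stricter in the simulation. Small changes can be missed, but these rates do not give the share missed in the data. The members, lists and tests were chosen with earlier results of these data known. Named members are, in each comparison and complex, the 2 largest rises and falls among called members whose groups did not overlap, and preset isoforms, anchors, assembly genes and PPARGC1A; others were named after their values were seen. Array letters a, b and c paired samples (all 3 correlations of deviations over 0.1) in 3 of 18 comparisons, MEK162 at 3 h and 24 h and the ERK inhibitor at 3 h, from the data alone. Alternatives varied the level filter, array centring, a block on the letter, the GAPDH difference as a covariate, the groups in the fit and each array left out; leaving out the arrays above 0.5 in the GAPDH difference was added after seeing the data. Promoters were searched with Python 3.11.15, and figures drawn with matplotlib 3.10.9.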

Additional observations from a re-analysis of the deposited data

Results flagged for a closer look

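The effect of a treatment on the members differed between times, by a test of that difference itself, in 5 of the 6 treatments. With LGX818, 28 members had another effect at 24 h than at 3 h, and with trametinib, MEK162 and the ERK inhibitor 10, 13 and 6 did. With the shRNA labelled shERK2, 12 members had another effect at day 7 than at day 3. Each of these counts stands beside the share of all tested genes whose effect differed, 52%, 49.7%, 50.9%, 48.7% and 23.9%.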

How the results depend on the processing

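The counts of members called at 24 h with the 4 inhibitors kept within 1.5 times their value under every alternative run. With each array left out in turn they were 34 to 45 with LGX818, 21 to 29 with trametinib, 28 to 36 with MEK162 and 20 to 27 with the ERK inhibitor. At 3 h the ranges were 0 to 13 with trametinib, 0 with MEK162 and 0 to 4 with the ERK inhibitor. The interaction ranges were 6 to 18 for trametinib, 6 to 14 for MEK162 and 5 to 10 for the ERK inhibitor. They were 4 to 9 for shERK2 at day 3, 28 to 42 for shERK2 at day 7, 1 to 2 and 0 to 5 for NT against parental cells at days 3 and 7, and 6 to 14 for DMSO over time.

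Without a level filter, the 3 h counts were 1 with LGX818, 0 with trametinib, 0 with MEK162 and 1 with the ERK inhibitor, and NT against parental cells at day 7 gave 1. The strict filter, at the 75th percentile, gave 0 with MEK162 at 3 h. Array centring gave 0 with trametinib, 2 with MEK162 and 1 with the ERK inhibitor at 3 h, interaction counts of 17 for trametinib, 21 for MEK162 and 1 for shERK1, and 4 for NT against parental cells at day 7. With the GAPDH difference as a covariate, the counts were 3 with MEK162 at 3 h, 14 with shERK2 at day 3, 22 with shERK1 at day 7, 6 and 11 for NT against parental cells at days 3 and 7, 2 for the shERK1 interaction, 20 for shERK2 against shERK1 at day 3 and 5 for NT over time. With only the groups of the comparison in the fit, which leaves fewer arrays to estimate the spread, they were 1 with LGX818 and 3 with MEK162 at 3 h, 21 with shERK2 at day 3, 24 with shERK1 and 19 with shERK2 at day 7, 18 for NT against parental cells at day 3, 2 for the shERK1 interaction and 8 for NT over time. Counts under other settings, here and above, are given without the share of all tested genes unless it is stated. Without that share, a move cannot be read as particular to the members. The causes of these moves were not tested.

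With the array letter as a replicate block, MEK162 gave 37 at 24 h instead of 36, and the counts of MEK162 and the ERK inhibitor at 3 h stayed at 1 and 0, so the block moved no count by over 1.5 times where the letters paired the arrays. Where they did not, NT against parental cells at day 7 gave 1 instead of 2 with the block. Leaving out the arrays above 0.5 in the GAPDH difference, added after seeing the data, moved none of 6 counts by over 1.5 times. Signals near background limit NDUFB4, whose level lay at the limit of the filter.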
